A study of Homo sapiens with 15 samples.

Results

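The regions described here are 361 H3K27ac peaks that were silent in the parental MDA-MB-231 line (Par) and marked in LM2, its lung-seeking derivative, in BrM2, its brain-seeking derivative, or in both, out of 62195 consensus H3K27ac peaks. They were chosen by the H3K27ac read counts themselves. A peak was kept when it held under 1 CPM (the reads in the peak scaled to 1000000 reads in all peaks of that library) in both Par libraries and at least 4 CPM in both libraries of LM2 or of BrM2. Of the 361 peaks, 85 met the rule in LM2 only, 218 in BrM2 only and 58 in both lines. They made up 0.58% of all H3K27ac peaks and 19.3% of the 1872 peaks that were under 1 CPM in both Par libraries. The mirror rule, silent in both libraries of LM2 or BrM2 and marked in both Par libraries, found 27 peaks. The counts of 361 and 27 rest on unlike read limits. Under 1 CPM meant at most 4 and 3 reads in the Par libraries, 6 and 3 in LM2, with 3 and 1 in BrM2.

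H3K27ac is acetylation of lysine 27 on histone H3, a mark laid down by the acetyltransferases EP300 and CREBBP at active enhancers and active promoters. H3K4me3, trimethylation of lysine 4, is the mark of active or poised promoters, and it is usually low at distal enhancers. A region without H3K27ac that gains it in a derived line is commonly called a de novo enhancer or promoter.

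MDA-MB-231 is a triple-negative breast cancer cell line. LM2 and BrM2 are populations selected from it by passage through mice for growth in lung and in brain, so each is 1 selected population and not a set of independent clones. All 3 lines were grown for 3 days in medium with 10% serum and received no treatment. Each line had 2 libraries of H3K27ac and 2 of H3K4me3, which gives 12 libraries with counts, and p-values measure the spread between those pairs. H3K27ac libraries held 1994996 to 6450028 reads in peaks and H3K4me3 libraries 3489607 to 9839629. At these depths 4 CPM of H3K27ac meant at least 8 reads in BrM2 replicate 2, the shallowest library, and at least 26 reads in LM2 replicate 1, the deepest, while under 1 CPM meant at most 4 reads in Par replicate 1 and 3 in Par replicate 2. H3K4me3 at the starts of VIM, CD44, ZEB1 and EGFR, genes that this mesenchymal-like line is known to use, lay between 103 and 304 CPM in every library, and no H3K4me3 peak lay at the starts of PTPRC or SFTPC, markers of blood and lung cells, while GFAP, an astrocyte marker, had 2.30 to 9.53 CPM. Of 5 luminal and epithelial markers, ESR1 had 6.88 and 7.15 CPM in Par, 39.5 and 38.3 in LM2, with 24.2 and 20.2 in BrM2, and KRT19 130 and 115 in Par, 67.5 and 51.8 in LM2, with 126 and 95.0 in BrM2. PGR ranged from 1.15 to 20.4 CPM over the libraries, CDH1 from 2.01 to 8.03 and EPCAM from 36.4 to 72.5.

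Sequence of 5 members with high H3K27ac in their class is given here to show what such distal regions look like. Each run is 150 bases of hg19 inside the peak, in the stretch of its central 1000 bases with the most letters in motif matches, and capitals mark the matches. The first lies near RFC3 and holds an ETS and a STAT match. The DAPK1 window holds an ETS and an AP-1 match, and the LRATD1 window of BrM2 a steroid receptor and a TEAD match. The last 2 belong to peaks marked in both lines and hold AP-1 with C/EBP matches, joined near LRATD1 by a GATA match.

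RFC3, LM2 only, chr13:34185023-34185172, plus strand: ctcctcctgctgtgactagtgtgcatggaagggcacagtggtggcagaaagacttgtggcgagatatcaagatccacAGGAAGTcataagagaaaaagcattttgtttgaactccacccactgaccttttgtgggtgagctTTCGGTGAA
DAPK1, BrM2 only, chr9:89891432-89891581, plus strand: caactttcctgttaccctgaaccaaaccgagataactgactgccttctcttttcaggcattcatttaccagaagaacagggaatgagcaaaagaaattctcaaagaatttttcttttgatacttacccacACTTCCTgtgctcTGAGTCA
LRATD1, BrM2 only, chr2:14401988-14402137, plus strand: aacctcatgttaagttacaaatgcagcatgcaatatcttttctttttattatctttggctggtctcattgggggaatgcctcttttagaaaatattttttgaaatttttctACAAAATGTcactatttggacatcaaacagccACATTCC
SPANXA1, both, chrX:140557063-140557212, plus strand: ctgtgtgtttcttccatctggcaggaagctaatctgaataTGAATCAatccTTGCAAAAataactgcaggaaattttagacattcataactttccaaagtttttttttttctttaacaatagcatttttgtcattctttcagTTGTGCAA
LRATD1, both, chr2:14657112-14657261, plus strand: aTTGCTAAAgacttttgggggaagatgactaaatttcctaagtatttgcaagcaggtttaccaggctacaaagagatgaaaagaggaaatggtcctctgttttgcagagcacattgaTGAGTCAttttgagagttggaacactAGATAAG

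On both strands, 11 motifs were searched in the 1000 bases around the midpoint of each peak. AP-1 (TGANTCA) and C/EBP (TTGCNNAA) were the most frequent in the 361 peaks. In peaks shorter than the window, flanking sequence was searched as well. Median lengths were 775 bases for the 361 peaks and 1468 over all peaks, so flanks entered more often at members. Matches of different motifs may overlap and each was counted. AP-1 was held by 40.0% of LM2-only, 43.6% of BrM2-only and 48.3% of shared peaks, against 38.5% of all H3K27ac peaks. For C/EBP the shares were 41.2%, 39.9% and 39.7%, against 36.2%. STAT (TTCNNNGAA) was held by 35.3% of BrM2-only and 21.2% of LM2-only peaks, against 26.5% of all peaks. AP-2 (GCCNNNGGC), a motif rich in G and C, was held by 14.7% of the 361 peaks against 28.0% of all peaks. Their median GC content was 43.7%, against 46.2% over all peaks. The forkhead motif (TGTTTAC) was held by 16.9% of the 361 peaks against 13.0% of all peaks. For TEAD (ACATTCC) the shares were 15.5% and 14.5%, and for RUNX (TGTGGTT) 19.7% and 18.1%. The letters AGATAAG, bound by the GATA family, were held by 12.5% against 11.8%. ETS (AGGAAGT) was held by 21.3% against 23.8%, the steroid receptor motif (ACANNNTGT) by 22.4% against 22.5% and POU (ATGCAAAT) by 5.26% against 5.34%. No motif was held by most of the peaks of any class.

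H3K27ac levels of the members in the lines of their class lay near or above those of the median peak. Medians over all 62195 peaks were 6.67 and 6.12 CPM in LM2, with 6.12 and 6.02 in BrM2. Peaks at 4 CPM or more in all 6 libraries had higher medians, from 19.3 to 19.8 CPM in LM2 and BrM2. LM2-only peaks had medians of 6.82 and 5.85 CPM in the LM2 libraries, BrM2-only peaks 6.88 and 6.52 CPM in the BrM2 libraries, and shared peaks 9.07 and 7.98 CPM in LM2, with 7.52 and 7.52 in BrM2. Medians in the Par libraries ran from 0.261 to 0.684 CPM. These values chose the peaks, so they are a description and no test was made of H3K27ac against Par. Both Par libraries had 0 reads at 18 peaks. At the remaining peaks a ratio to Par could be formed, with medians of 14.3 for LM2 at LM2-only peaks, 19.6 for BrM2 at BrM2-only peaks, and 15.9 (LM2) and 16.7 (BrM2) at shared peaks. The plot of H3K27ac by library shows each peak.

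**Figure D1:**
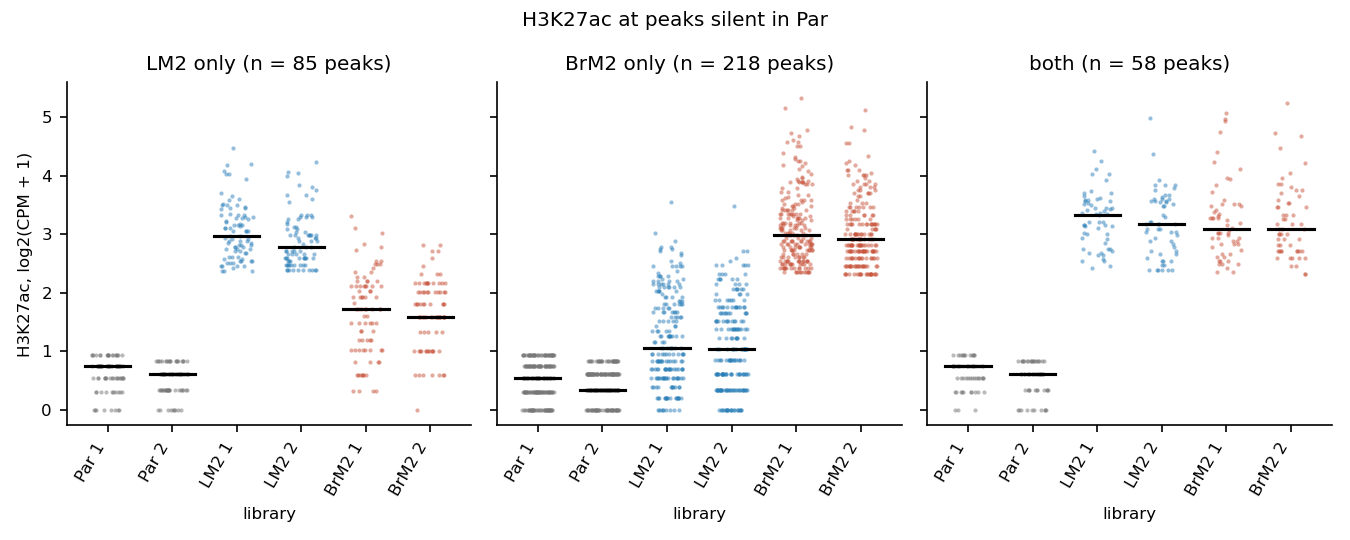
H3K27ac at the 361 peaks silent in Par, as log2(CPM + 1), in each of 6 libraries (1 point per peak, bar at the median), for peaks marked in LM2 only, BrM2 only and both. LM2-only peaks also carried some H3K27ac in BrM2 (medians 2.29 and 2.01 CPM), while BrM2-only peaks had medians of 1.09 and 1.06 CPM in LM2.

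The classes were not equally exclusive. Of the 85 LM2-only peaks, 5 were under 1 CPM in both BrM2 libraries, 57 had a BrM2 value of at least 1 but none of 4 CPM, and 23 reached 4 CPM in 1 BrM2 library. Of the 218 BrM2-only peaks, 85 were under 1 CPM in both LM2 libraries, 104 lay in between and 29 reached 4 CPM in 1 LM2 library. Membership of a class therefore does not mean absence of the mark in the other line. Under 1 CPM meant at most 3 and 1 reads in BrM2 replicates 1 and 2, against 6 and 3 in those of LM2. The counts of 5 and 85 thus rest on unlike read limits. Just inside the rule, the smaller replicate was 4.19 CPM for LM2 and 4.01 for BrM2, and just outside it 3.99 and 3.82. The largest Par value was 0.912 CPM inside and the smallest outside was 1.04, and 295 marked peaks were left out with a larger Par value between 1 and 1.5 CPM.

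Among LM2-only peaks, the highest H3K27ac lay near KCTD7, at chr7:66077626-66078801, an intergenic peak with 0.684 and 0.783 CPM in Par, 21.1 and 15.7 in LM2, with 1.02 and 2.51 in BrM2. The ratio of LM2 to Par was 26.2, with a 95% exact interval for counting error only of 11.8 to 72.1. The rule used these counts, so this interval and those given below describe the counts and are no test against Par. An intergenic peak 206250 bases from RFC3, a subunit of the clamp loader of DNA replication, had 0.456 and 0 CPM in Par, 17.4 and 17.8 in LM2, with 1.27 and 0.501 in BrM2 (chr13:34183945-34185956). A peak inside an intron of LRMDA, a gene of melanocyte differentiation, had 15.3 and 11.7 CPM in LM2, 4.59 and 2.51 in BrM2 and 0.912 and 0.522 in Par. The remaining 3 of the 6 highest were intronic, in PRKCZ (10.1 and 15.4 CPM in LM2), RNF213 (16.0 and 9.04) and SUCLA2 (15.3 and 8.78). Near SOX21, a transcription factor of the nervous system, both Par libraries had 0 reads and LM2 had 8.99 and 6.65 CPM, so that LM2 was at least 11.1-fold higher, against a floor of 3 reads per library.

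BrM2-only peaks reached higher levels. The highest was an intergenic peak 716736 bases from CADM2, a neural cell adhesion gene, with 39.0 and 33.6 CPM in BrM2, 5.89 and 3.99 in LM2 and 0.912 and 0 in Par (chr3:84289305-84291404). The next, near MAT2B, had 34.4 and 27.6 CPM in BrM2, 0.465 and 0.532 in LM2 and 0.912 and 0.261 in Par. LM2 and Par overlapped there, and BrM2 was 52.8 times Par (interval 22.2 to 164). Peaks near SSTR1, a somatostatin receptor gene (24.5 and 22.6 CPM), LRATD1 (23.4 and 22.6) and DAPK1, a death-associated kinase gene (26.5 and 17.0), were also intergenic. The sixth covered the start of ZNF300, a zinc finger gene, with 18.1 and 26.6 CPM in BrM2, 0.465 and 2.13 in LM2 and 0.456 and 0.783 in Par.

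Peaks marked in both lines held the highest level of LM2. The peak in ANO2, a chloride channel gene, had 11.6 and 30.6 CPM in LM2, 32.4 and 36.6 in BrM2 and 0.456 and 0.783 in Par (chr12:5915829-5919502). A peak on chromosome X, 113974 bases from SPANXA1, had 1 read in all in Par, 20.5 and 19.7 CPM in LM2, with 29.6 and 24.6 in BrM2. Its ratio to Par was 166 in LM2 (interval 29.4 to 6579) and 229 in BrM2 (interval 40.5 to 9102). The SPANX genes are a family of sperm proteins that tumours can express, and they are near-identical copies, so read placement in that region is uncertain. A second peak of the region, nearest to SPANXC, had 12.2 and 14.1 CPM in LM2, with 10.2 and 10.0 in BrM2. A peak near COL6A1, a collagen VI chain gene, had 10.9 and 13.3 CPM in LM2, 11 and 21.1 in BrM2 and 0.456 and 0.522 in Par.

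H3K27ac of the 58 shared peaks was also set side by side in BrM2 and LM2. The rule asked for 4 CPM in all 4 libraries, which leaves out peaks that are low in either line, so the number of calls below is a description and nothing is read from it. DESeq2's Wald test on the 6 libraries, with adjustment over all 62195 peaks, called 0 of 58 at an adjusted p under 0.05, against 2.2% of all peaks in either direction. An unadjusted p under 0.05 was found at 4 of 58, edgeR's quasi-likelihood test called 1 with an unadjusted p under 0.05 at 11, DESeq2 with the replicate number as a block called 1 and edgeR with the block called 6. The log2 difference ran from -1.10 to 1.51 with a median of -0.07, and the median standard error was 0.58. For 0 of the 58 peaks did the 95% interval lie within a 2-fold change either way. These intervals do not show that the lines were alike.

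The members lay far from genes. Their median distance to the nearest start of a protein-coding gene was 71.9 kb for LM2-only, 168 kb for BrM2-only and 114 kb for shared peaks, against 19.4 kb over all H3K27ac peaks. Within 2 kb of such a start lay 22 of the 361 (6.09%), against 24.4% of all peaks. Between genes lay 57.6%, 65.6% and 60.3% of the classes, against 35.8%, and over 500 kb from a start lay 74 members (20.5%), against 2.65%. LM2-only and BrM2-only members were short, with median lengths of 843 and 652.5 bases, while the shared members had 1474.5 bases, against 1468 over all peaks. Peaks marked at 4 CPM or more in all 6 libraries, 28908 in number, had a median length of 2979 bases. Within a long non-coding RNA gene lay 92 members (25.5%), against 22.0% of all peaks.

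**Figure D2:**
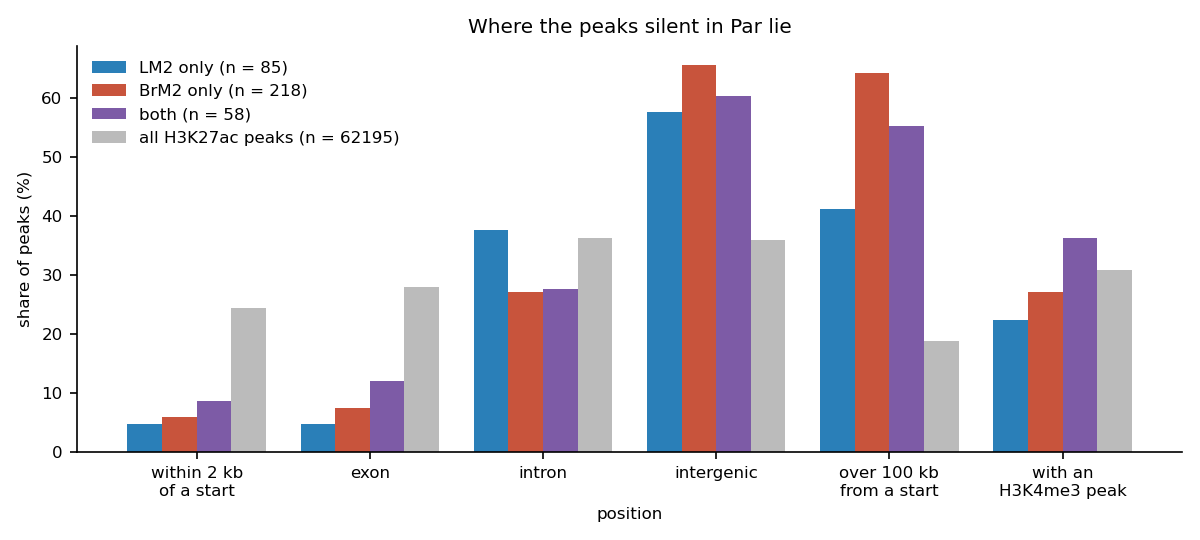
Share of peaks in percent (bars) at 6 kinds of position, for the 3 classes silent in Par and for all 62195 H3K27ac peaks. The 3 classes have smaller shares near starts and in exons and larger shares between genes, and the share with an H3K4me3 peak lies between 22.4% and 36.2% against 30.9%.

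The few members at starts, meaning within 2 kb of one, lay by genes of different kinds. In LM2 only, these were IGSF1, an immunoglobulin superfamily gene (8.22 and 8.78 CPM in LM2), PDIA6, a protein disulfide isomerase (9.92 and 11.7), WWP2, a ubiquitin ligase (4.19 and 8.24), and STRA6, a retinol transporter (5.43 and 5.32). In BrM2 only, 13 peaks lay at starts, led by ZNF300, KRTAP20-4 (25.5 and 11.5 CPM in BrM2), NRK, a kinase gene (13.8 and 18.0), OR4N2, an olfactory receptor gene (19.9 and 10.0), DSCAM, a neural adhesion and axon guidance receptor gene (13.5 and 14.0), and CARD18, an inhibitor of caspase-1 (10.5 and 15.0). Shared peaks covered the starts of AMPH, amphiphysin of synaptic vesicle endocytosis (9.30 and 12.5 CPM in LM2, 17.8 and 17.5 in BrM2), RASEF (11.3 and 9.04, 13.3 and 9.02), PCBP3 (8.22 and 8.24, 6.63 and 7.02) and DOK6 (4.50 and 4.52, 4.33 and 13.5). The remaining shared peak lay 653 bases from NFILZ, with 5.27 and 6.38 CPM in LM2, with 8.67 and 12.5 in BrM2. Not all of these peaks reached the start. Those by IGSF1, PDIA6 and STRA6 lay 46, 70 and 1979 bases from it. Those by KRTAP20-4, OR4N2 and DSCAM lay 762, 1506 and 1416 bases away. The peaks by WWP2, STRA6, KRTAP20-4, OR4N2, PCBP3 and NFILZ overlapped no H3K4me3 peak.

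H3K4me3 came from other libraries and was not part of the rule, so it could be tested. Of the 361 peaks, 99 overlapped an H3K4me3 consensus peak by at least 1 base, and these were 98 different H3K4me3 peaks, 1 of them shared by a BrM2-only and a shared H3K27ac peak near BANP. At the 98 peaks H3K4me3 was also low in Par, with medians of 0.287 and 0.298 CPM against 16.9 and 23.5 over all 22572 H3K4me3 peaks. For 75 of them both Par libraries were under 1 CPM of H3K4me3, and 29 met the same limits in H3K4me3 as the members did in H3K27ac.

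H3K4me3 rose in LM2 at 18 of the 40 H3K4me3 peaks that overlapped LM2-marked members. Over all H3K4me3 peaks DESeq2 called 1.82% higher and 0.496% lower in LM2 than in Par. The Par medians at the 40 were 0 and 0.372 CPM, which left almost no room for a fall, and a peak empty in Par entered the consensus list through another line. Peaks as low in Par are therefore the nearer comparison. Of the 34 that were under 1 CPM in both Par libraries, 12 were higher in LM2 (35.3%), against 109 of 2213 such H3K4me3 peaks that overlapped no member (4.93%). The called peaks were 8 of 19 at LM2-only and 10 of 21 at shared members, and the median log2 difference at the 40 was 3.39 against 0.02 over all peaks. DESeq2's filter on low counts left 10 of the 40 without an adjusted p, and 1751 of all 22572 H3K4me3 peaks. Such peaks count as not called in both shares, and their number among the 2213 is not given here. Without Par replicate 2, the deeper of the Par libraries, 7 of the 40 were called.

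H3K4me3 rose in BrM2 at 45 of the 79 peaks that overlapped BrM2-marked members, against 2.77% higher and 0.775% lower over all peaks. The Par medians there were 0.287 and 0.298 CPM, with the same limit on falls. Of the 57 peaks under 1 CPM in both Par libraries, 29 were higher in BrM2 (50.9%), against 205 of the 2213 that overlapped no member (9.26%). At BrM2-only members 37 of 59 were called and at shared members 9 of 21, with the BANP peak counted in each. The median log2 difference at the 79 was 4.07, against -0.02 over all peaks, and 5 of the 79 had no adjusted p. Over all H3K4me3 peaks 438 had none, and the shares above again count such peaks as not called. The count was 26 without Par replicate 1, 15 without Par replicate 2, 26 without BrM2 replicate 1 and 21 without BrM2 replicate 2. Both contrasts use the same Par libraries. A low H3K4me3 value in them enters each.

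Between the metastatic lines, H3K4me3 was higher in BrM2 at 25 of the 59 peaks of BrM2-only members and lower at 0, against 2.05% and 1.13% of all peaks. The LM2 medians there were 0.459 and 0.813 CPM, which left almost no room for a lower value in BrM2. The rule had also kept LM2 short of the H3K27ac limit at these members. No comparison with H3K4me3 peaks as low in LM2 was made. At LM2-only members H3K4me3 was lower in BrM2 at 2 of 19 and higher at 0. At shared members 0 of 21 were called, with 0 of 21 at an unadjusted p under 0.05. The edgeR test called 30 of the 98 peaks where DESeq2 called 27. Leaving out 1 library of LM2 or BrM2 gave 13 calls without LM2 replicate 1, 10 without LM2 replicate 2, 10 without BrM2 replicate 1 and 9 without BrM2 replicate 2. The 2 lower calls became 0, 1, 0 and 0 in these same fits. The median log2 difference of BrM2 and LM2 was 2.53 at BrM2-only, -1.37 at LM2-only and -0.28 at shared members, against -0.04 over all peaks.

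**Figure D3:**
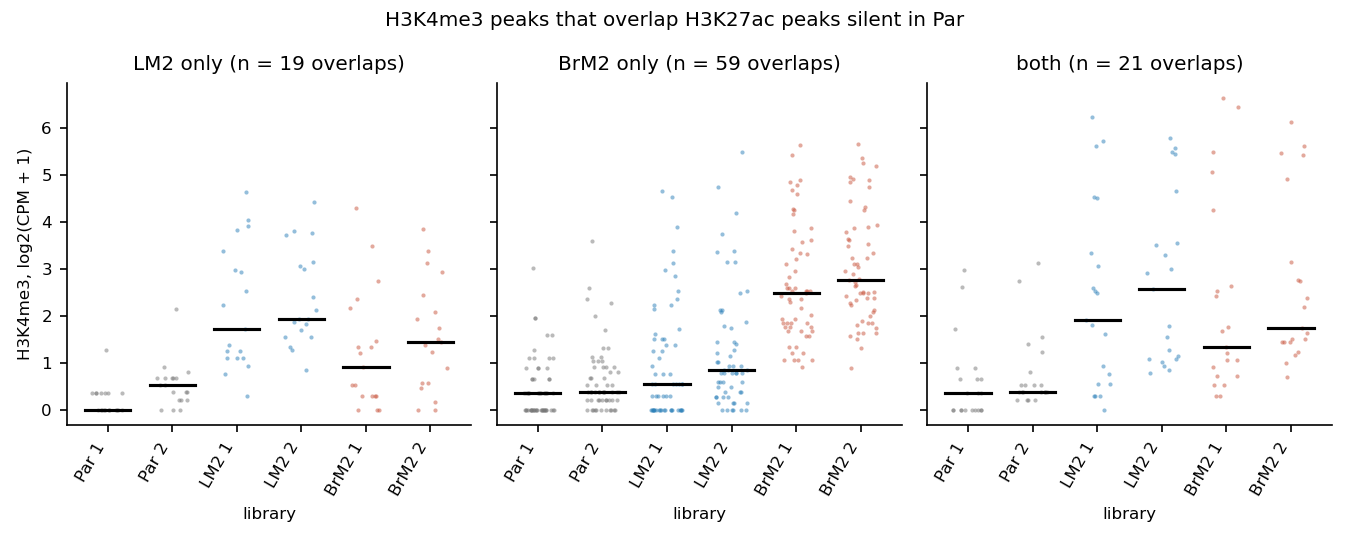
H3K4me3 at the peaks that overlap the 361 members, as log2(CPM + 1), in each of 6 libraries (1 point per overlap, bar at the median). At BrM2-only members the BrM2 medians were 4.58 and 5.82 CPM, while the LM2 medians were 0.459 and 0.813.

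Several of these H3K4me3 peaks were gene starts. At EPB41L3, a membrane skeleton protein of cell junctions, H3K4me3 was 0.86 and 1.04 CPM in Par, 0.918 and 0.813 in LM2, with 28.8 and 40.0 in BrM2 (chr18:5542422-5544247). Par and LM2 overlapped and BrM2 stood apart, with a log2 difference from Par of 5.11 ± 0.64 (SE, DESeq2 adjusted p = 1.04e-12). At DSCAM the levels were 1.15 and 0.894 CPM in Par, 6.20 and 9.25 in LM2, with 42.1 and 37.3 in BrM2, so the 3 lines did not overlap, and BrM2 was above Par by 5.31 ± 0.61 (adjusted p = 1.1e-14). At ROBO2, a receptor for SLIT axon guidance proteins, H3K4me3 was 2.87 and 5.06 CPM in Par, 24.3 and 25.9 in LM2, with 48.7 and 49.4 in BrM2. There it rose in both lines, by 3.55 ± 0.43 in BrM2 (adjusted p = 1.79e-13) and 2.68 ± 0.43 in LM2 (adjusted p = 3.73e-07), although the H3K27ac rule placed the peak in BrM2 only (5.61 and 5.51 CPM, against 2.17 and 1.6 in LM2).

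NRK and ZNF300 showed H3K4me3 and H3K27ac in BrM2 together. NRK had 0 and 0.596 CPM of H3K4me3 in Par, 0 and 0.305 in LM2, with 18.3 and 28.6 in BrM2. ZNF300 had 0.86 and 1.49 CPM in Par, 0 and 0.711 in LM2, with 13.8 and 28.1 in BrM2. MYO3A, an unconventional myosin gene of hair cells, had 23.1 and 20.7 CPM in BrM2 and at most 1.15 in the other libraries. Each of these 3 was called in BrM2 against Par and against LM2, with adjusted p of 2.1e-08, 1.02e-06 and 1.88e-08 against Par. At CARD18 the levels were 9.17 and 14.3 CPM in BrM2 and at most 0.745 elsewhere.

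At LM2-only members the start of IGSF1 had 0 and 0.596 CPM of H3K4me3 in Par, 14.0 and 12.3 in LM2, with 1.53 and 2.35 in BrM2. The log2 difference of LM2 from Par was 5.25 ± 0.94 (DESeq2 adjusted p = 7.91e-06). Near NFIA, a nuclear factor I gene, 225334 bases away, H3K4me3 had 0 reads in all Par and BrM2 libraries and 3.67 and 4.27 CPM in LM2. Near MSX2, a homeobox gene, the LM2 levels were 23.9 and 20.4 CPM and those of BrM2 18.8 and 13.4, against 1.43 and 3.43 in Par. There H3K4me3 rose in both lines, and H3K27ac of BrM2 was 8.92 and 1.5 CPM, so that the call as LM2-only rested on BrM2 replicate 2.

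At shared members AMPH had 0.86 and 1.64 CPM of H3K4me3 in Par, 52.1 and 46.7 in LM2, with 86.9 and 68.8 in BrM2. It rose by 5.30 ± 0.55 in LM2 and 5.87 ± 0.55 in BrM2 (DESeq2 adjusted p = 1.01e-17 and 1.13e-22). RASEF, a RAS and EF-hand domain gene, had 5.16 and 5.66 CPM in Par, 74.1 and 54.1 in LM2, with 98.9 and 43.4 in BrM2. At the intergenic peak nearest to a start of BANP, levels were 0.287 and 0.447 CPM in Par, 22.0 and 44 in LM2, with 18.1 and 29.1 in BrM2, which put an H3K4me3 peak of 3773 bases where Par had almost none. DOK6 had more H3K4me3 in Par, 6.88 and 7.74 CPM, than most members, and 48.4 and 42.5 in LM2, with 44.3 and 48.1 in BrM2.

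Several called H3K4me3 peaks lay away from annotated starts. Near MMP8, 22221 bases from that collagenase gene, H3K4me3 was 0.287 and 0.596 CPM in Par, 15.4 and 13.0 in LM2, with 5.67 and 7.68 in BrM2 (LM2 against Par 4.98 ± 0.83, DESeq2 adjusted p = 1.01e-06). Near FLRT2 the levels were 0.287 and 0.298 CPM in Par, 13.3 and 12.6 in LM2, with 4.15 and 6.69 in BrM2. Near LHX8, a homeobox gene, a shared member had 0 and 0.447 CPM in Par, 5.05 and 8.84 in LM2, with 4.37 and 7.81 in BrM2. At these 3 peaks the DESeq2 call in LM2 was lost without Par replicate 2, with log2 differences of 5.52, 5.38 and 6.90, and near LHX8 also without LM2 replicate 2 (4.45, adjusted p = 0.052).

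Members were spread unevenly over the chromosomes. Chromosome 18 held 34 members, 3.01% of its H3K27ac peaks, and chromosome 21 held 22, 3.44% of its peaks, against 0.58% over the genome. Of the 218 BrM2-only peaks, 31 were on chromosome 18, 20 each on chromosomes 5 and 14, and 19 on chromosome 21. LM2-only peaks were most numerous on chromosome 13, with 11 of 85. Chromosome 1, with 6001 peaks, had 15 members and chromosome 22 had 1. Differences in copy number between the lines cannot be told apart from differences in mark with these counts, and the inputs were not analysed here.

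**Figure D4:**
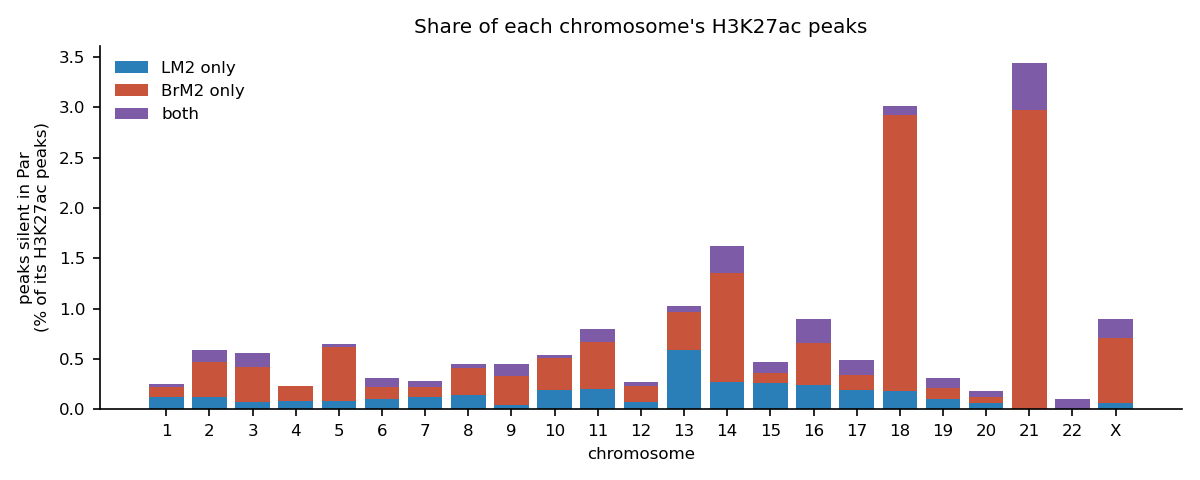
Members as percent of the H3K27ac peaks of each chromosome (stacked bars, coloured by class). Chromosomes 21 and 18 stand highest, at 3.44% and 3.01%, and BrM2-only peaks make up most of both bars.

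Joining members at most 1 Mb apart gave 223 loci, and 157 members stood alone. There were 15 stretches of at least 4 members, with 85 members in all, of which 65 were BrM2-only. The stretch with most members was chr21:27960624-29068007, whose members were nearest to CYYR1 and to ADAMTS5, an aggrecan-cleaving protease gene, and where 10 of 16 H3K27ac peaks were BrM2-only members. Their summed H3K27ac was 6.16 and 3.92 CPM in Par, 6.67 and 3.99 in LM2, with 96.3 and 86.2 in BrM2. The 6 peaks of the stretch that were not members had 9.58 and 8.09 CPM in Par, 7.75 and 11.7 in LM2, with 202 and 174 in BrM2. At the 68 other peaks within 2 Mb on either side, BrM2 was 1.15 times Par. The 7 H3K4me3 peaks of the stretch summed to 16.6 and 21.3 CPM in Par, 21.8 and 32.9 in LM2, with 167 and 164 in BrM2. H3K4me3 rose in BrM2 at 5 of the 7, and 4 were also higher than in LM2.

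A stretch on chromosome 18, chr18:70786033-71548528, between NETO1 and FBXO15, held 8 BrM2-only members among 9 peaks. Their H3K27ac summed to 1.37 and 1.83 CPM in Par, 2.79 and 3.19 in LM2, with 71.6 and 64.7 in BrM2, and the flanking peaks of BrM2 were 1.6 times those of Par. Its 7 H3K4me3 peaks had 0.287 and 0.745 CPM in Par, 0.459 and 0.407 in LM2, with 29.2 and 50.7 in BrM2, and 3 of 7 were called higher in BrM2. On the same chromosome, 8 of 22 peaks around SETBP1, a gene for a SET-binding protein, and SLC14A2, a urea transporter gene, were BrM2-only members (chr18:42159273-43169408). Their sums were 2.05 and 3.13 CPM in Par, 18.3 and 13.3 in LM2, with 55.3 and 48.6 in BrM2, and no H3K4me3 peak lay in the stretch. LM2 was thus between Par and BrM2 there, while in the other 2 stretches it lay close to Par.

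**Figure D5:**
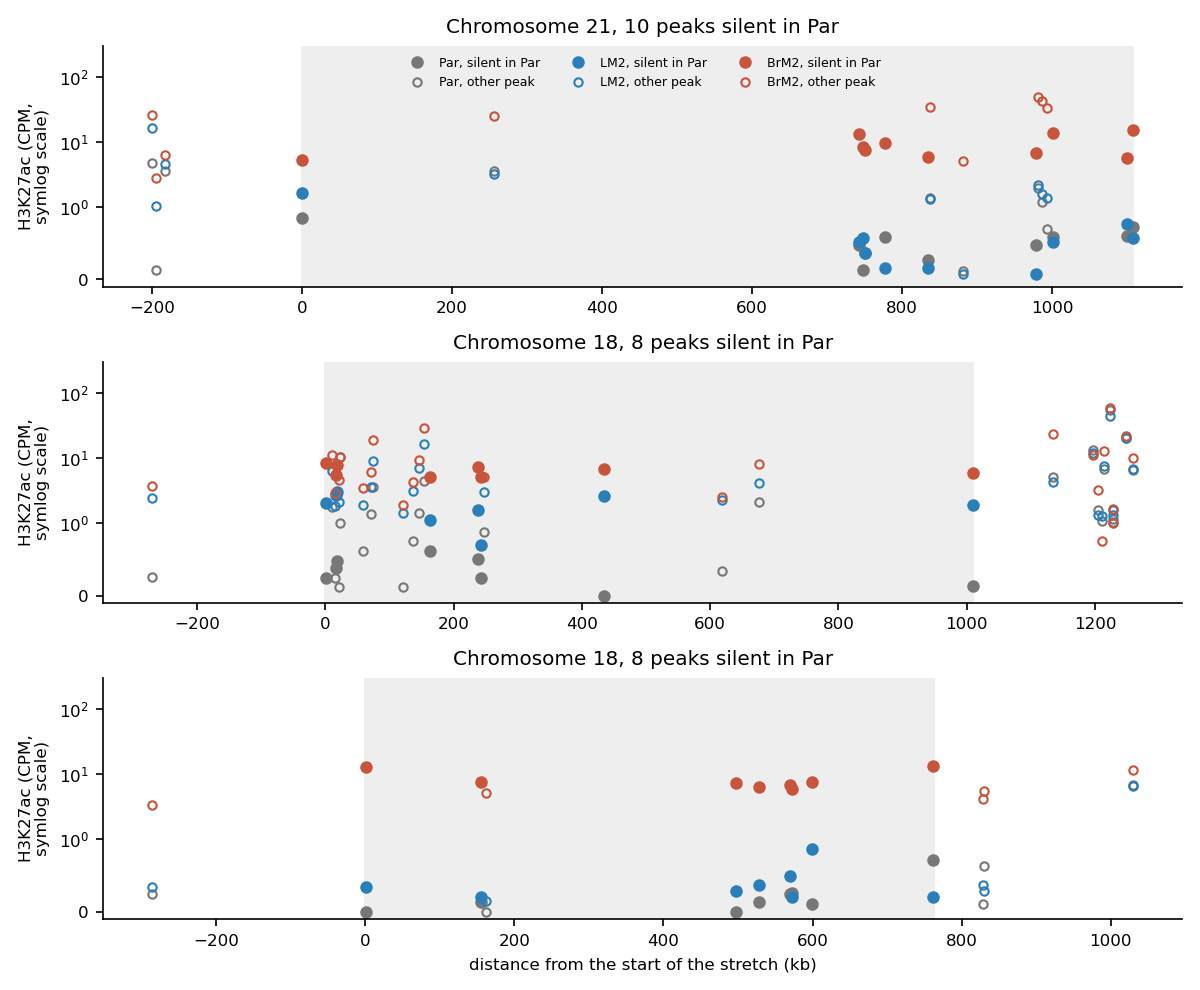
Mean H3K27ac per line (CPM, symlog scale) of each peak in 3 stretches with 8 or more members, by distance from the start of the stretch in kb (shaded). Filled points are peaks silent in Par and open points are other peaks; BrM2 stands above LM2 and Par at the filled points of all 3.

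Shorter runs lay inside neural genes. All 4 H3K27ac peaks in an intron of CNTN5, a contactin of neural adhesion, within 8.92 kb (chr11:99289359-99298277), were BrM2-only, with sums of 1.37 and 0.783 CPM in Par, 1.86 and 3.72 in LM2, with 45.9 and 30.1 in BrM2. In KIRREL3, another adhesion gene, 4 of 6 peaks were BrM2-only, with 1.82 and 1.31 CPM in Par, 2.64 and 1.86 in LM2, with 40.0 and 30.6 in BrM2. Flanking peaks were not higher in BrM2 at these loci, at 0.814 and 0.703 times Par. Around LRATD1 all 4 peaks were members, 3 in BrM2 only and 1 in both lines. A stretch with mostly LM2-only members lay near PDGFD, a growth factor gene, CASP4 and CARD18 on chromosome 11, with 4 LM2-only members and 1 BrM2-only, and its sums were 3.42 and 2.09 CPM in Par, 28.4 and 29.0 in LM2, with 25.5 and 30.1 in BrM2. Over the 5 members together LM2 and BrM2 therefore overlapped. In the stretch of chromosome 5 near the cadherin genes CDH12, CDH10 and CDH9, 5 of 11 peaks were BrM2-only, and there the flanking peaks were also high, at 4.62 times Par in LM2 and 4.83 in BrM2.

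Other peaks near the members moved in part with them. Over the non-member H3K27ac peaks within 1 Mb, BrM2 exceeded Par by at least 2-fold for 61 of 180 BrM2-only members with at least 5 such neighbours (33.9%), against 0.811% of all peaks. For LM2-only members, LM2 exceeded Par by at least 2-fold around 12 of 84 (14.3%), against 0.84%. LM2 did so around 22 of 180 BrM2-only members (12.2%) and 11 of 54 shared members (20.4%). The LM2 share was therefore not particular to LM2-only members. BrM2 exceeded Par in this way around 7 of 84 LM2-only (8.33%) and 12 of 54 shared members (22.2%). The median log2 ratio of the neighbourhood was 0.61 for BrM2-only and 0.30 for LM2-only members. Members close together share neighbours, so the same neighbourhood can count several times. The 218 BrM2-only members fell in 131 loci and the 85 LM2-only members in 74. The neighbours come from the same libraries that chose the members, and the part of copy number or of broad domains was not tested.

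Of 12 gene lists compared with the nearest protein-coding start, cadherins and neural adhesion molecules took the most members, 41 of 361 (11.4%, against 0.881% of all peaks), near 19 genes and with 33 of the 41 in BrM2 only. They included CDH9, CDH10, CDH12, CADM2, CNTN5, KIRREL3, NRXN3 and TENM2. Such genes are often flanked by long regions without other genes, and 1 stretch can count several times. In an intron of TENM2, a teneurin gene, BrM2 had 18.4 and 19.1 CPM, LM2 0.62 and 1.06 and Par 0.456 and 0.522. Between genes near CDH11, a mesenchymal cadherin gene, a shared member had 16.3 and 10.9 CPM in LM2, 10.5 and 7.02 in BrM2 and 0.456 and 0.261 in Par. Near PCDH10, H3K4me3 was 17.0 and 26.0 CPM in BrM2 and at most 1.19 in the other libraries, higher in BrM2 than in Par (DESeq2 adjusted p = 8.42e-08).

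Developmental transcription factors were nearest to 17 members (4.71%, against 2.38%), among them MSX2, SOX21, FOXF1 and POU3F2. The member near FOXF1 marked in both lines had 11.9 and 11.7 CPM in LM2, with 5.10 and 5.51 in BrM2. Its log2 difference of BrM2 and LM2, -1.10 ± 0.58, was the lowest of the 58 shared members, and DESeq2 called 0 of the 58. Extracellular matrix and protease genes were nearest to 13 (3.6%, against 1.35%), 9 of them the stretch by ADAMTS5, and axon guidance genes to 10 (2.77%, against 0.929%), such as DSCAM, ROBO2, SLIT3 and EPHA7. Ion channel genes and the phospholipase C, adenylyl cyclase, phosphodiesterase and RGS genes were nearest to 5 each (1.39%, against 1.12% and 0.966%), with PLCB1, a phospholipase C gene, at 9.77 and 10.9 CPM in LM2, with 9.18 and 6.52 in BrM2. Neurotransmitter receptors and synaptic release genes were nearest to 4 (1.11%, against 0.542%), growth factor families to 2 (0.554%, against 0.916%), both by PDGFD, and the cancer-testis families to the 2 peaks by SPANX genes (0.554%, against 0.106%). Cytokines and chemokines (CCL28) and ETS and AP-1 family genes (MAF) had 1 each (0.277%, against 0.384% and 0.550%). The genes of the lung and brain metastasis list had 0 members nearest to them, against 0.302% of all peaks, a share too small to tell from 0 in 361 peaks.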

How the data were processed

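ChIP-seq of H3K27ac and H3K4me3 in Par, LM2 and BrM2 cells (2 replicates per line and mark) was analysed from deposited count tables. Per the labels and the study's methods, the authors trimmed reads with Trimmomatic 0.32, aligned them to hg19 with Bowtie2 2.3.4.3, marked duplicates with Picard 2.18.21, called broad consensus peaks on merged libraries of a mark with MACS2 2.1.2 and counted reads extended to 150 bases. The deposited values are raw read counts per peak, made by the authors with featureCounts 1.6.0, with no normalization. Calling on merged libraries can leave out regions marked weakly in 1 line. The labels give 10 min of fixation in 1% formaldehyde, the study's methods a longer time. The 3 input samples were not used.

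The members, the gene lists and the motifs were chosen with earlier results of these data known. CPM was the count over the library's total in peaks. H3K4me3, and H3K27ac of shared members between BrM2 and LM2, were tested with DESeq2 1.42.0 on all peaks of a mark (6 libraries, line as the only term, Wald test, Benjamini-Hochberg adjustment, default filtering). Errors of log2 differences are standard errors. Tests were checked on simulated counts. Alternatives were edgeR 4.0.16 quasi-likelihood, a replicate block, total-count factors, a filter of 10 counts, chromosome medians removed, a stricter overlap and each library left out. Ratios to Par use pooled counts with exact 95% intervals. Distances, introns and exons come from GENCODE 44 on GRCh37, whose sequence is that of hg19. Peaks were named by the nearest protein-coding start.

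Named peaks were, per class, the 6 with the highest mean CPM in the class's lines, the 4 with the smallest adjusted p of H3K4me3 against Par (for shared members the largest mean difference among those called in both), up to 6 within 2 kb of a start, and up to 3 per gene list. MYO3A, NFIA and PCDH10, the H3K4me3 peaks under 1 CPM in Par, the stretches and the neighbourhoods were chosen after the values were seen. Deviations of same-numbered libraries from their line means correlated across lines with r from 0.632 to 0.683 for H3K4me3 and 0.245 to 0.32 for H3K27ac. No label ties same-numbered libraries to a common batch. Some items are not reported here.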

Additional observations from a re-analysis of the deposited data

Results flagged for a closer look

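At 3 of the named H3K4me3 peaks the metastatic lines differed from each other by DESeq2's Wald test of BrM2 against LM2. H3K4me3 at the start of EPB41L3 was higher in BrM2 by a log2 difference of 5.28 ± 0.61 (adjusted p = 6.64e-15). At DSCAM it was higher in BrM2 by 2.29 ± 0.43 (adjusted p = 1.91e-05). At IGSF1 it was lower in BrM2, with a log2 difference of -2.86 ± 0.64 (adjusted p = 0.000597), and this call was lost without LM2 replicate 1, without BrM2 replicate 1 and without BrM2 replicate 2. These starts had been named for their difference from Par, and in each of the 3 the levels of BrM2 and LM2 did not overlap.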

How the results depend on the processing

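The number of members followed its limits: 115 with Par under 0.5 CPM, 576 with at least 3 CPM and 178 with at least 6 CPM in a metastatic line, and 442 to 637 with 1 library left out of the rule, highest without Par replicate 2 and 577 without Par replicate 1. It was 361 with size factors of DESeq2 or edgeR. H3K4me3 calls at LM2-marked members against Par (18) ran from 7 to 17 with 1 library left out, at BrM2-marked members (45) from 15 to 40, and between BrM2 and LM2 (27) from 9 to 27. A line left with 1 library was assumed to vary like the others. Same-numbered libraries may be paired. With the replicate number as a block DESeq2 called 19, 51 and 38, and edgeR with the block called 31, 70 and 66, for the same 3 comparisons. H3K27ac of shared members between BrM2 and LM2 went from 0 to 1 called with edgeR, 1 with the replicate block and 6 with edgeR and the block, and was 0 to 0 with each library left out. Without the stretches, a choice made after seeing the data, H3K4me3 calls were 14 of 31, 34 of 54 and 24 of 70. Of 180 refits of named H3K4me3 peaks, 172 kept their call and 8 lost it with the same direction. These refits covered 15 pairs of peak and contrast against Par, chosen for a small adjusted p or a large difference, which made a kept call likely. Some of the refits left out a library of the line outside the contrast. Other named peaks are not in that count. Low counts in Par limit precision: 3 reads are 0.684 and 0.783 CPM there.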
